A study of Caenorhabditis elegans with 15 samples.

Results

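Saposin-like proteins of Caenorhabditis elegans are encoded by the spp genes, and 10 of them (spp-1, spp-2, spp-3, spp-5, spp-8, spp-9, spp-10, spp-14, spp-15 and spp-18) were followed here through an RNA sequencing (RNA-seq) experiment with ursolic acid. They form a given list of 10 of the 23 spp genes, matched by gene name among the 20541 genes of the count table. The match itself used no measured values, but the list was chosen with earlier results of these data known. Of the 10 genes, 9 passed the filter on low counts and could be tested, and spp-9 did not. Ursolic acid (UA) is a triterpenoid made by plants, and dimethyl sulphoxide (DMSO) is the solvent in which it was given. Wild-type N2 larvae were fed E. coli OP50 for 34 h, until the L3 stage, and then kept for 12 h with 50 µM UA in DMSO, with DMSO alone or without treatment. They were harvested as L4 larvae, and poly-A RNA of whole animals was sequenced with a stranded kit. Each of the 3 groups had 5 libraries, numbered by batch in the labels, so that 1 library of each group came from each of 5 batches. The study describes the libraries of a group as independent replicates. The comparisons ask whether UA changed the transcripts of these genes beyond its solvent, and whether the solvent did.

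Saposin-like proteins share a small, cysteine-rich fold that is held together by disulphide bonds and binds lipids. In mammals, saposins are cut from the precursor prosaposin and help lysosomal enzymes to break down sphingolipids, the lipids to which ceramide and sphingosine belong. Other members of the family are antimicrobial peptides that open pores in membranes, such as the amoebapores of amoebae and NK-lysin of mammalian lymphocytes, and their nematode relatives are called caenopores. SPP-1 and SPP-5 are caenopores that act against bacteria in the worm intestine. SPP-10 is the prosaposin-like protein of the worm.

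In the WBcel235 annotation, 5 of the 10 genes lie on chromosome X, 3 on IV, 1 on III and 1 on I. On X, 3 of them sit in a run of 5 spp genes within 5386 bp: spp-3 (X:7314969-7315353), spp-2 (X:7315995-7316818) and spp-5 (X:7319937-7320354), all on the minus strand, with spp-6 and spp-4 between the last 2. The genes spp-14 (X:7725979-7726383) and spp-9 (X:11487784-11488203) lie elsewhere on X, on the plus strand. On chromosome IV, spp-10 (IV:8477180-8480656) ends 1007 bp before spp-8 (IV:8481664-8483621) on the same plus strand, and spp-18 (IV:9593712-9594413) is on the plus strand farther along. The remaining genes are spp-1 (III:10355098-10355668) and spp-15 (I:6249556-6250197), both on the minus strand. Most of the genes are short: 7 have 2 exons, and 8 encode proteins of 99 to 125 amino acids. SPP-8, with 401 amino acids, and SPP-10, with up to 428, are the long ones. The exons of spp-15 overlap those of C48E7.6 on the other strand over 243 bp, and those of spp-1 overlap T07C4.3 over 19 bp. C48E7.6 averaged 25.0 CPM (counts per 1000000 counts of the library) and T07C4.3 averaged 99.2 CPM. The strand setting of the counting is not given in the sources used here, so reads of spp-15 in the shared stretch may not be separable from those of C48E7.6.

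Total counts were 12485842 to 24872334 per UA library, 22148505 to 24018538 per DMSO library and 20644549 to 27474535 per untreated library, and the UA library of batch 5 was the shallowest. Together the 10 genes took 1184 ± 29.3 CPM in UA larvae, 1194 ± 56.3 CPM in DMSO larvae and 1174 ± 40.2 CPM in untreated larvae (SD, n = 5 each). Marker genes of intestine (8 genes) summed to 2722 to 3382 CPM in UA libraries, 2777 to 3432 CPM in DMSO libraries and 2691 to 3368 CPM in untreated libraries. None of these markers was at 0 in all libraries, and none was called between groups by the test used below. The 31 major sperm protein (msp) genes summed to 447 to 1376 CPM in UA libraries, 536 to 1520 CPM in DMSO libraries and 510 to 1401 CPM in untreated libraries, and none of the 28 tested was called between groups.

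The genes differed far more from each other than they did between groups, as the plot of levels per kb of exon shows. Levels of different genes were compared as CPM per kb of exon, averaged over all 15 libraries. The caenopore gene spp-5 was the highest of all 23 spp genes at 938 CPM per kb, and spp-14 was next at 753 CPM per kb, close to spp-17, which is not among the 10, at 747 CPM per kb. The ranges of spp-5 and spp-14 over libraries overlapped, but spp-5 was higher in 15 of 15 libraries. Among the 10 genes, spp-3 came next at 387 CPM per kb, then the prosaposin-like spp-10 at 144 CPM per kb, and neither overlapped another of the 10 in any library. The next 3 of the 10 genes could not be ordered beyond their spread: spp-8 at 77.7, spp-2 at 76.3 and the caenopore gene spp-1 at 75.0 CPM per kb, where spp-8 was above spp-2 in 11 of 15 libraries and spp-2 was above spp-1 in 7 of 15. Below them stood spp-18 at 53.97 CPM per kb, whose range overlapped that of spp-2 but not that of spp-1, and spp-15 at 25.9 CPM per kb, which overlapped no other member. Within the run of genes on X, the level per kb of spp-5 was 12.3 times that of spp-2, 11.9 times that of spp-4 and 2.42 times that of spp-3, while spp-6 in the same run averaged 0.584 CPM per kb. How the counting treated reads that map to several genes is not given in the sources used here, and sharing of reads between close copies was not tested.

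**Figure D1:**
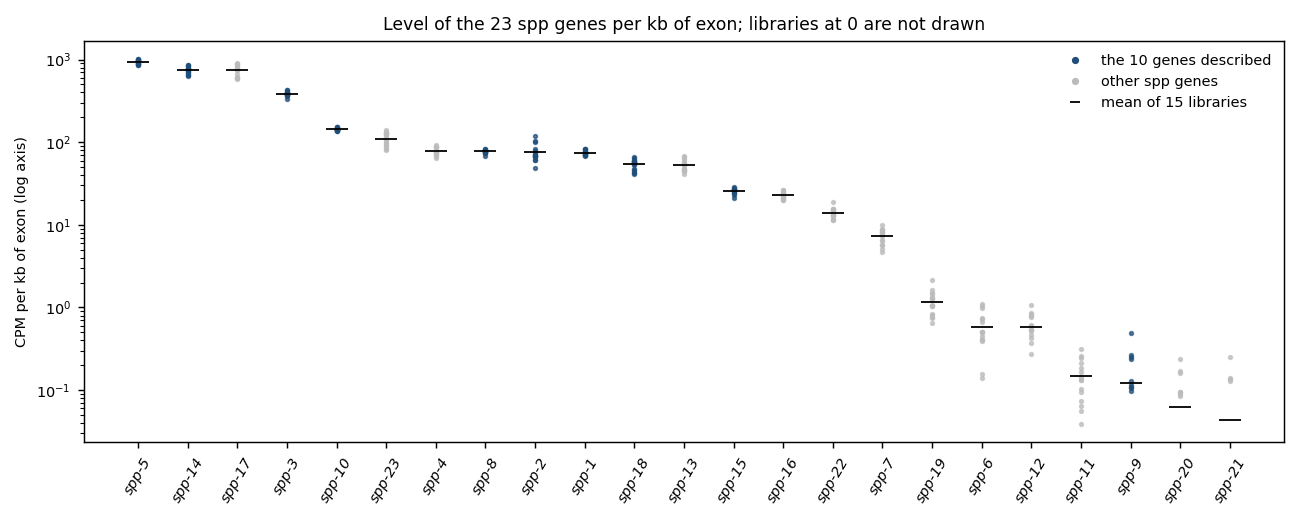
Level of each of the 23 spp genes in CPM per kb of exon (log axis), with a point for each of the 15 libraries and a bar at their mean; blue marks the 10 genes described and grey the other 13. The highest mean is that of spp-5 at 938 CPM per kb, and spp-9, at 0.121 CPM per kb, is among the lowest.

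The gene spp-9 was barely detected. The 5 UA libraries held 1, 0, 2, 0 and 0 reads of it (batches 1 to 5), the DMSO libraries 2, 1, 4, 0 and 1, and the untreated libraries 1, 2, 1, 0 and 0. These 15 reads in all, at most 0.183 CPM in a library, allow no comparison between groups at this depth. Its neighbour on X, spp-21, had 4 reads in all.

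No tested member was called in any treatment comparison by edgeR's quasi-likelihood test at a Benjamini-Hochberg adjusted p under 0.02, with group and batch as terms. Between UA and DMSO, 0 of 9 were called, where 0.271% of the 14037 tested genes were called. Between UA and untreated larvae 0 of 9 were called, against 1.05% of all genes, and between DMSO and untreated larvae 0 of 9, against 0.121% of all genes. At an unadjusted p under 0.05, edgeR found 0 members between UA and DMSO, 2 between UA and untreated larvae (spp-10 and spp-14) and 1 between DMSO and untreated larvae (spp-3). DESeq2 also called 0 members in each comparison and gave the same counts at an unadjusted p under 0.05. Over all tested genes, edgeR gave an unadjusted p under 0.05 for 14.01% between UA and DMSO, 12.3% between UA and untreated larvae and 7.91% between DMSO and untreated larvae. In whole animals, fewer cells of a type and less RNA per cell cannot be told apart, and this holds for every difference below.

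The 95% intervals describe, for each gene alone and without adjustment for the number of genes, the size of change that could have been missed. Between UA and DMSO, the members' log2 fold changes ran from -0.09 to 0.07, with a median of -0.02 against -0.00126 over all tested genes, and a median size of 0.05 against 0.06 over all genes. The 95% intervals of the 9 genes reached no farther than a fall of 16.3% (-16.3%) and a rise of 14.3%. Between UA and untreated larvae, log2 fold changes ran from -0.09 to 0.09 (median 0.03, against 0.00370 over all genes) and the intervals stayed within -13.7% and 14.3%. Between DMSO and untreated larvae, they ran from -0.04 to 0.14 (median 0.02, against 0.00634 over all genes) and the intervals stayed within -12.4% and 19.8%. The 3 comparisons share their libraries in pairs and are not independent of each other.

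**Figure D2:**
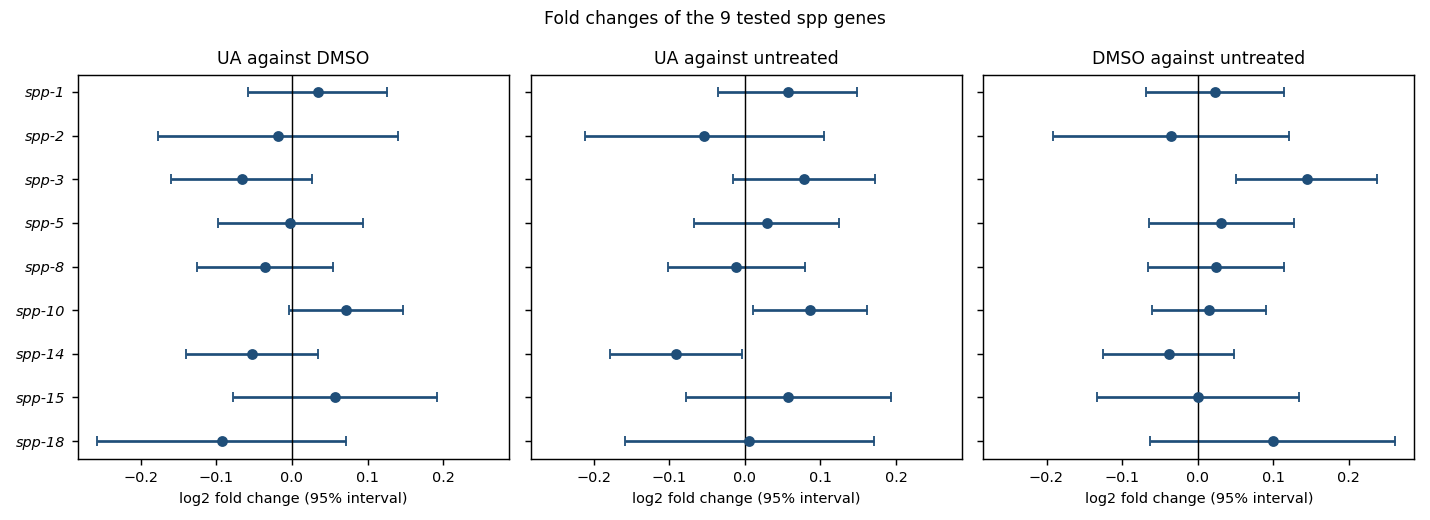
Log2 fold change (horizontal axis) of the 9 tested spp genes in 3 panels (UA over DMSO, UA over untreated, DMSO over untreated); points are edgeR estimates from 5 libraries a group and bars are 95% intervals. All points lie between -0.09 and 0.14, and the interval of spp-3 in the DMSO panel is the one farthest clear of 0.

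The caenopore gene spp-5 was nearly equal in UA and DMSO larvae. It had 362, 374, 338, 356 and 317 CPM in the UA libraries of batches 1 to 5, 324, 376, 344, 353 and 352 CPM in the DMSO libraries, and 325, 332, 367, 365 and 322 CPM in the untreated libraries. The groups overlapped throughout, and the lowest of all 15 values was that of the shallowest library, UA batch 5. Its log2 fold change of UA against DMSO was -0.00219 (95% interval -0.10 to 0.09, edgeR adjusted p = 0.992), which makes spp-5 the member with the smallest difference in that comparison. The log2 fold change was 0.03 both for UA and for DMSO against untreated larvae, with edgeR adjusted p of 0.852 for UA and 0.926 for DMSO.

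The caenopore gene spp-1 is also known as a target of the insulin-pathway transcription factor DAF-16. It had 43.1, 38.5, 42.6, 36.9 and 38.9 CPM in UA libraries, 40.6, 39.1, 38.5, 36.9 and 40.0 CPM in DMSO libraries and 39.7, 37.7, 43.3, 36.0 and 35.7 CPM in untreated libraries. The highest untreated value, in batch 3, lay above every UA value, so the groups overlapped. The log2 fold change of UA was 0.03 ± 0.044 (SE) against DMSO, with an edgeR adjusted p of 0.779, and 0.06 against untreated larvae.

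The prosaposin-like gene spp-10 was the member with the smallest p of UA against DMSO, and the difference did not pass the test. It had 231, 213, 222, 230 and 235 CPM in UA libraries, 213, 205, 219, 213 and 228 CPM in DMSO libraries and 214, 221, 211, 206 and 213 CPM in untreated libraries. The UA library was above the DMSO library of its own batch in 5 of 5 batches, but the groups overlapped, since the UA library of batch 2 stood below the DMSO libraries of batches 3 and 5. It was the 1 member of the 9 on the same side in all batches between UA and DMSO, where 11% of all tested genes were. The log2 fold change was 0.07 ± 0.036 (SE, 95% interval -0.00392 to 0.15), with an unadjusted p of 0.0619 and an adjusted p of 0.383 by edgeR. Against untreated larvae the UA libraries gave 0.09 ± 0.036 (SE), were higher in 4 of 5 batches and had an edgeR adjusted p of 0.313. None of the 9 members had the same sign in all 5 batches between UA and untreated larvae, where 11.2% of all genes did. Its neighbour spp-8 gave no like value: it averaged 99.9 ± 7.18 CPM in UA larvae, 102 ± 4.44 CPM in DMSO larvae and 101 ± 3.53 CPM in untreated larvae (SD, n = 5 each), a log2 fold change of -0.04 between UA and DMSO (edgeR adjusted p = 0.762).

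The gene spp-3 showed its largest difference between DMSO and untreated larvae. It had 135, 139, 127, 133 and 131 CPM in UA libraries, 129.6, 145, 139, 135 and 149 CPM in DMSO libraries and 124, 115, 133, 129 and 129 CPM in untreated libraries. DMSO was above untreated in 5 of 5 batches, most in batches 2 and 5, while the groups overlapped through the DMSO library of batch 1 and the untreated library of batch 3. It was the 1 member on the same side in all batches in this comparison, where 9.39% of all genes were. The log2 fold change was 0.14 ± 0.045 (SE, 95% interval 0.05 to 0.24), with an unadjusted p of 0.00429 that did not pass adjustment over all genes (0.355 by edgeR). The mean of UA larvae lay between those of the other groups, with log2 fold changes of -0.07 against DMSO (adjusted p = 0.538) and 0.08 against untreated larvae.

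For spp-14, the value in UA larvae was the lowest of the group means. It had 254, 276, 267, 234 and 262 CPM in UA libraries, 243, 306, 295, 225 and 279 CPM in DMSO libraries and 277, 285, 309, 234 and 276 CPM in untreated libraries. The groups overlapped widely, and batch 4 was the lowest batch in each of them. Between UA and untreated larvae the log2 fold change was -0.09 ± 0.042 (SE, unadjusted p = 0.0408, edgeR adjusted p = 0.369), with UA higher in 1 of 5 batches. Against DMSO it was -0.05 (adjusted p = 0.615).

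The gene spp-18 had 22.1, 25.7, 21.5, 26.6 and 26.8 CPM in UA libraries, 20.3, 24.5, 28.5, 27.8 and 30.6 CPM in DMSO libraries and 19.6, 19.3, 27.4, 30.3 and 26.5 CPM in untreated libraries. The groups overlapped, and its log2 fold change of UA against DMSO, -0.09 ± 0.079 (SE, edgeR adjusted p = 0.640), was the most negative among members and turned with the batch: UA was higher in batches 1 and 2 and lower in the others. The gene spp-2 had 33.6, 38.7, 24.2, 50.5 and 37.6 CPM in UA libraries, 32.3, 33.3, 29.96, 49.4 and 41.1 CPM in DMSO libraries and 29.7, 34.9, 33.5, 59.3 and 35.2 CPM in untreated libraries. Here the highest value of every group came from batch 4, and between UA and DMSO its log2 fold change was -0.02 ± 0.076 (SE, edgeR adjusted p = 0.942). The lowest tested member, spp-15, averaged 15.02 ± 0.331 CPM in UA larvae, 14.5 ± 1.30 CPM in DMSO larvae and 14.4 ± 1.49 CPM in untreated larvae (SD, n = 5 each). Its UA values lay inside the range of the other groups, and between UA and DMSO the log2 fold change was 0.06 ± 0.065 (SE, edgeR adjusted p = 0.740).

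**Figure D3:**
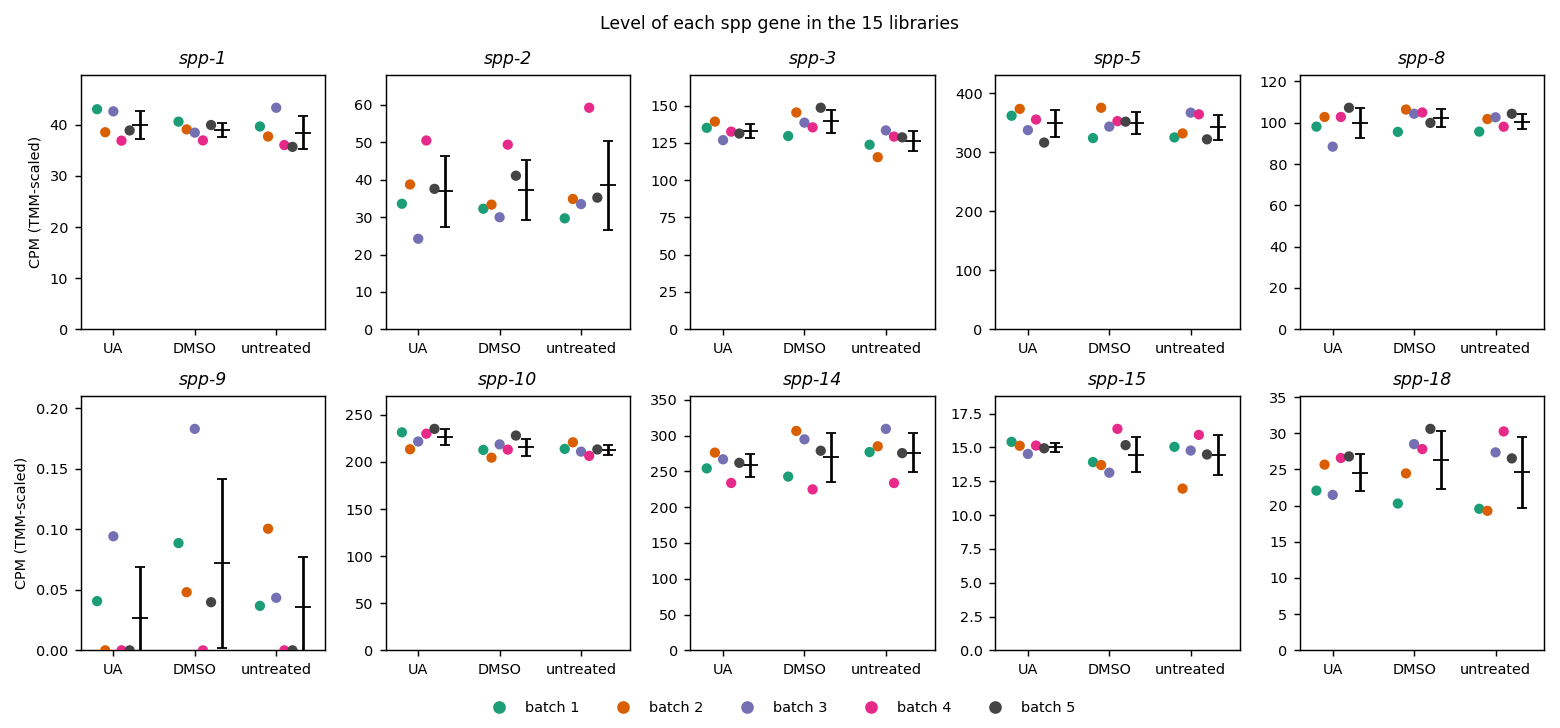
Level of each of the 10 spp genes in CPM (vertical axis, from 0, its own scale in each panel) in UA, DMSO and untreated larvae; points are single libraries coloured by batch and bars give the mean and SD of 5 libraries, cut at 0 for spp-9. The groups overlap for every gene, and batch 4 (pink) is the highest in each group for spp-2 and the lowest in each group for spp-14.

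No member had all libraries of a group on 1 side of all libraries of another, in any comparison. Over all tested genes this held for 0.499% between UA and DMSO, 0.741% between UA and untreated larvae and 0.157% between DMSO and untreated larvae. Of the other 13 spp genes, 8 were tested, and edgeR called 0 of them in each comparison. Among those, spp-4, in the run on X, had the smallest p of UA against DMSO, with 30.1 ± 2.67 CPM in UA larvae and 35.1 ± 2.98 CPM in DMSO larvae (SD, n = 5 each), lower in UA in 5 of 5 batches. Its log2 fold change of -0.22 ± 0.056 (SE) missed the threshold at an edgeR adjusted p of 0.0954. At an unadjusted p under 0.05, edgeR also found spp-13 and spp-17 between UA and DMSO. The gene spp-13 was higher in UA larvae (0.17, adjusted p = 0.123, higher in 4 of 5 batches). The gene spp-17 was lower (-0.13, adjusted p = 0.208, higher in 1 of 5 batches).

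Differences between batches were larger than those between treatments for some of these genes. The test of any difference between batches called 3 of 9 members by edgeR, namely spp-2, spp-14 and spp-18, where it called 53.0% of all tested genes, and 4 of the 8 other tested spp genes. The range of the batch means of log2 CPM ran from 0.07 to 0.87 among members, with a median of 0.18 against 0.35 over all genes.

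The gene spp-2 varied most. Its level was 49.4 to 59.3 CPM in the 3 libraries of batch 4 (mean 53.1 ± 5.41, SD), and 24.2 to 41.1 CPM in the 12 libraries of the other batches, with no overlap. The lowest batch was batch 3, at a mean of 29.2 CPM. The range of its batch means was 0.87 on the log2 scale, and the edgeR batch test gave an adjusted p of 1.55e-06. Without batch 4 the adjusted p was 0.00571 and the gene was still called.

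The gene spp-14 ran the other way in batch 4. There it had 225 to 234 CPM (mean 231 ± 5.14, SD, n = 3), below every library of the other batches, and its highest mean was 290 CPM in batch 3 (log2 range 0.33, edgeR adjusted p = 0.000131). This call depended on batch 4, and without it the adjusted p was 0.0319. For spp-18 the lowest batch was batch 1, with 19.6 to 22.1 CPM in its 3 libraries (mean 20.6), and the highest was batch 4, with 26.6 to 30.3 CPM (mean 28.2, log2 range 0.45, adjusted p = 0.00272). Without batch 1 the adjusted p of spp-18 was 0.0714, over the threshold.

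The remaining 6 members were not called between batches. The edgeR adjusted p was 0.0376 for spp-1, 0.180 for spp-15, 0.245 for spp-5, 0.321 for spp-8, 0.565 for spp-10 and 0.827 for spp-3. For spp-1 the call depended on the scaling, since with RLE factors its adjusted p was 0.0166. The gene spp-3 had the smallest range over batches, 0.07 on the log2 scale.

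Many stage and tissue markers also differed between batches, where 53.0% of all tested genes did. The summed msp genes averaged 1432, 1154, 774, 1328 and 497 CPM in batches 1 to 5, and all 28 tested were called between batches. The 4 genes of the moult averaged 1751, 2227, 2600, 1685 and 2258 CPM in sum, and the 8 intestinal genes 2857, 2986, 3032, 2730 and 3394 CPM. All 4 moult genes and all 8 intestinal genes were called, as were 4 of 4 germ line, 3 of 3 oocyte and 4 of 4 hypodermal markers. Of the other lists, 0 of 3 body wall muscle, 1 of 4 neuronal and 2 of 4 pharyngeal markers were called. Batch 4, where spp-2 was highest and spp-14 lowest, had the lowest sums of moult and of intestinal genes. It also had the lowest sums of neuronal and pharyngeal markers and the highest of germ line markers. Batch 1 had the next lowest moult and intestinal sums, and there spp-2 averaged 31.8 CPM and spp-14 258 CPM. The part of these differences in the levels of spp-2, spp-14 and spp-18 was not tested.

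**Figure D4:**
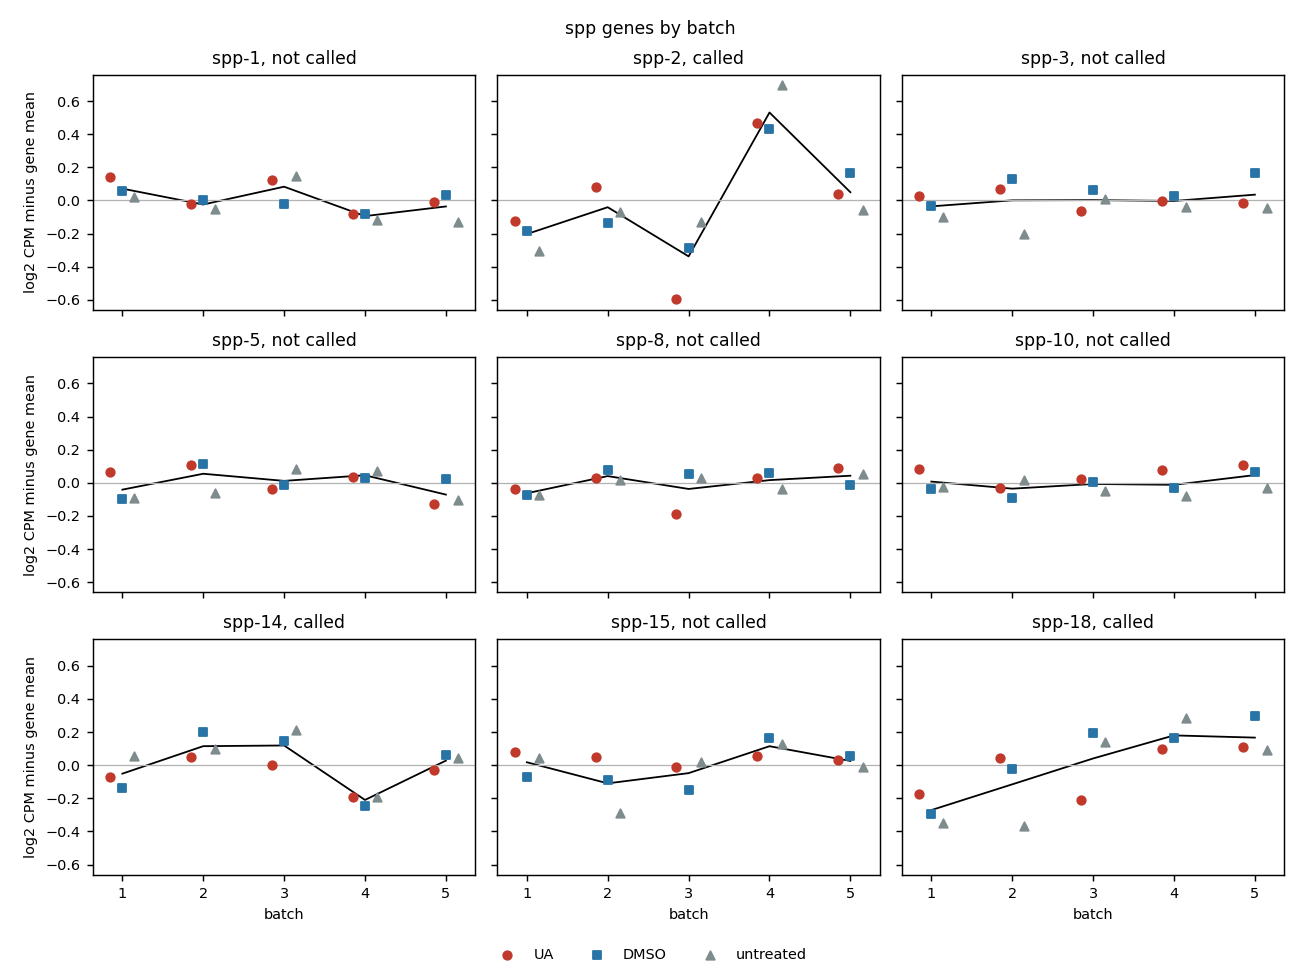
Log2 CPM of each tested spp gene minus its mean over 15 libraries (vertical axis) by batch (horizontal axis); symbols are single UA, DMSO and untreated libraries, the line joins batch means, and panel titles say whether the gene was called between batches. The range for spp-2 is 0.87, with all libraries of batch 4 on top, and the range for spp-3 is 0.07.

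Some members varied together from library to library. After the means of group and batch were removed from log2 CPM, spp-3 and spp-5 had a Pearson r of 0.940 over the 15 libraries (8 residual degrees of freedom). Among the 14036 other tested genes, spp-5 was the 1st in likeness to spp-3 by this measure, and spp-3 was the 6th in likeness to spp-5. Without untreated batches 2 and 3, the libraries in which spp-3 lay farthest from 0 after the means were removed, r was 0.942 (n = 13). Before the means were removed, r was 0.575 and Spearman's rho was 0.593. The ratio of spp-5 to spp-3 in CPM ran from 2.37 to 2.88 over the libraries. Each gene alone also spanned little, with a highest over lowest CPM of 1.29 for spp-3 and 1.19 for spp-5. With spp-18, r after removal was 0.873 for spp-3, 0.818 for spp-2 and 0.808 for spp-5. Many genes outside the family had values as high. In likeness, spp-18 was the 53rd gene to spp-3 and the 40th to spp-2, and spp-5 was the 70th to spp-18. For spp-3, 1.29% of the other tested genes had an r above 0.8, and for spp-18 0.577% did. The most negative pair was spp-10 with spp-15 at -0.609. The values of a library share its preparation and depth, and these coefficients are given as a description.

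**Figure D5:**
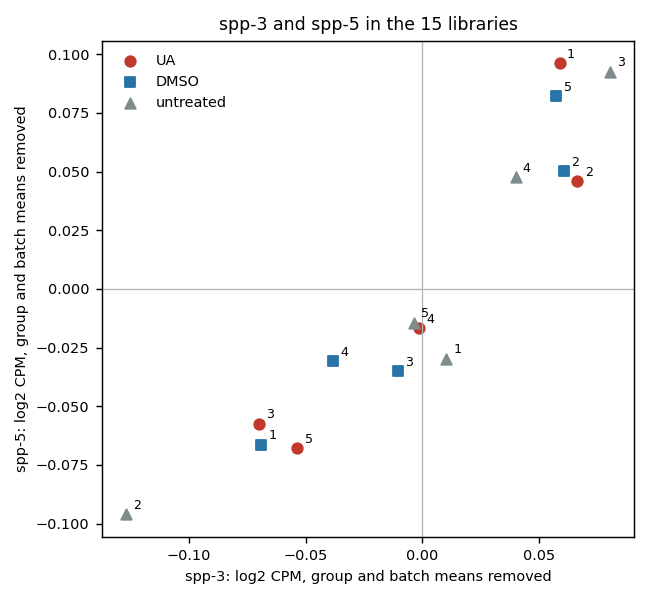
Log2 CPM of spp-5 (vertical axis) against that of spp-3 (horizontal axis) in each of the 15 libraries after the means of group and batch were removed; symbols are UA, DMSO and untreated libraries and digits give the batch. The points run along a line (r = 0.940), with untreated batch 2 at the low end.

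Without removal of any mean, the genes outside the spp family most like each member over the 15 libraries, by Pearson r of log2 CPM, were the following. The caenopore gene spp-1 was most like T07E3.3 (0.889) and nhr-204 (0.837), and the caenopore gene spp-5 was most like nekl-1 (0.791) and ttr-53 (0.782). The prosaposin-like spp-10 was most like nhr-94 (0.864) and T10B9.9 (0.841), and spp-8 was most like osm-11 (0.813) and ins-24 (0.810). In the run on X, spp-2 was most like F19C7.4 (0.930) and clec-61 (0.921), and spp-3 was most like C35B1.5 (0.867) and Y22D7AL.11 (0.807). The histone gene his-35 and the ribosomal protein gene rpl-7 were most like spp-14 (0.956 each). For spp-15 they were lag-1 (0.909) and cdk-7 (0.906), and for spp-18 arx-4 (0.867) and dhs-20 (0.842). Libraries of 1 batch share their batch, and these values are descriptions of 15 libraries.

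A few genes from lists of genes that act beside saposin-like proteins were called. These lists were chosen with earlier results of these data known, and the study had already reported a rise of asah-1 with UA. The counts of called genes here and in the next paragraph are therefore a description and no test of the lists. Of 9 tested sphingolipid hydrolases, the enzymes that saposins assist in mammals, edgeR called 1 between UA and DMSO, against 0.271% of all tested genes. This gene was higher in UA larvae. It was asah-1, the acid ceramidase gene, with a mean of 52.4 CPM in UA larvae and 42.6 CPM in DMSO larvae, a log2 fold change of 0.30 (adjusted p = 0.0164). That call was kept in 3 of 15 leave-out fits, each without a batch or a library, in which the adjusted p ran from 0.00153 to 0.121. Between UA and untreated larvae edgeR called 2 of the 9, against 1.05% of all tested genes, each higher in UA larvae. Of these, asah-1 rose by 0.47 on the log2 scale and was called in 15 of 15 such fits. The glucocerebrosidase gene gba-4 rose by 0.26 (adjusted p = 0.0161), called in 5 of 15, with adjusted p between 0.00143 and 0.146.

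The genes listed as antimicrobial, other than spp genes, were lysozyme, abf and C-type lectin genes and dod-22. Of these, 19 were tested and 0 were called between UA and DMSO. Between UA and untreated larvae 3 were called, against 1.05% of all tested genes, and all were higher in UA larvae. They were the lysozyme gene ilys-2 (log2 fold change 1.13, called in 5 of 15 leave-out fits), dod-22 (0.61, 15 of 15) and the lysozyme gene lys-2 (0.25, 4 of 15). The level of ilys-2 was low, at 2.06 ± 1.12 CPM in UA larvae and 0.907 ± 0.406 CPM in untreated larvae (SD, n = 5 each). It was higher in UA larvae in 4 of 5 batches. The highest adjusted p in those fits was 0.122 for ilys-2 and 0.133 for lys-2. Between DMSO and untreated larvae 1 of the 19 was called, against 0.121% of all tested genes. It was ilys-2, at 2.72 CPM in DMSO larvae and 0.907 CPM in untreated larvae (log2 fold change 1.57, adjusted p = 0.00108 by edgeR, 15 of 15). Of 21 lysosomal genes, 3 were called between UA and untreated larvae, against 1.05% of all tested genes, and all were higher in UA larvae. They were the cathepsin B-like protease genes cpr-1 (0.34, 13 of 15) and cpr-5 (0.24, 0 of 15) and the aspartic protease gene asp-3 (0.19, 2 of 15). In each of the other comparisons 0 were called. The highest adjusted p in the leave-out fits was 0.0361 for cpr-1 (without batch 1 or batch 2 it was not called), 0.120 for cpr-5 and 0.135 for asp-3. None of 13 regulators of intestinal and immune genes, daf-16 and elt-2 among them, was called in any treatment comparison.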

How the data were processed

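The deposited values are raw counts, which the authors made with featureCounts 1.5.2 from reads that overlap annotated exons, without normalization. The alignments behind them came from STAR 2.5.2b on the WBcel235 genome, from single-end reads. Picard was used to mark duplicates. Total counts ran from 12485842 to 27474535, and intervals on members rest on the spread between libraries.

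Following the study's filter, a gene was tested if a library had 10 or more counts of it and 3 or more libraries had 1 CPM or more, which kept 14037 of 20541 genes. Counts were fitted with edgeR 4.0.16 (R 4.3.3): TMM factors, the legacy quasi-likelihood fit without the robust option, and group and batch as terms over all 15 libraries. Calls were made below a false discovery rate of 0.02 (Benjamini-Hochberg over all tested genes). Standard errors are the log2 fold change divided by the root of F, and 95% intervals use the t distribution of the fit. CPM use TMM library sizes, and log2 CPM a prior count of 2. The study's methods name no batch term. The batch number pairs libraries, since those of the same batch deviated together from their group means (correlations of 0.413 to 0.844 across genes), so the batch was kept as a block. Positions and exon lengths come from the Ensembl 115 annotation of WBcel235, which held 20194 of the 20541 gene identifiers.

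The members and the gene lists were chosen with earlier results of these data known. Every member is named. Of the lists, up to 6 called genes per list and comparison are named, and for likeness the 2 closest genes outside the family. The genes spp-4, spp-13 and spp-17 are named besides, after their values were seen. The alternatives were no batch block, only the groups compared, DESeq2 1.42.0, RLE factors, the edgeR 4 method, its robust option, no filter, a filter of 10 counts in all libraries, a limit of 0.05 on the false discovery rate, and fits without each batch or library in turn. Figures were drawn with matplotlib 3.10.9. Sequences were not analysed here.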

Additional observations from a re-analysis of the deposited data

Results flagged for a closer look

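In untreated larvae, spp-2 stood at 59.3 CPM in the library of batch 4, far above the other 4 untreated libraries, which held 29.7 to 35.2 CPM. The gap to the nearest of them was 0.813 of the group's whole range, against a limit of 0.71 for 5 values. The UA and DMSO libraries of the same batch were the highest of their groups too, at 50.5 and 49.4 CPM. Of 27 groups of 5 libraries examined, this was the only 1 past the limit, and chance alone gives about 1.35.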

How the results depend on the processing

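Across all alternatives, 0 members were called in each treatment comparison (72 counts), and none of 648 alternative fold changes of members passed the threshold (smallest adjusted p 0.1501). Signs of small fold changes were not stable: 62 of the 648 values, in 15 of 27 fold changes, had the other sign. For spp-18 between UA and untreated larvae the log2 fold change was -9.41e-05 with RLE factors, -0.00577 with no replicate block and -0.000258 with only the groups compared. For spp-15 between DMSO and untreated larvae it was -0.00131 with RLE factors, -0.00333 with only the groups compared and -0.00076 with DESeq2. The cause of these changes was not tested. Leaving out each batch or library gave, between UA and DMSO, -0.00563 to 0.0604 for spp-1, -0.0799 to 0.0553 for spp-2, -0.0433 to 0.0344 for spp-5 and -0.0688 to 0.0130 for spp-8. Between UA and untreated larvae it gave -0.113 to 0.0341 for spp-2, -0.0108 to 0.0626 for spp-5, -0.0391 to 0.0347 for spp-8, -0.00902 to 0.0996 for spp-15 and -0.0905 to 0.0898 for spp-18. Between DMSO and untreated larvae it gave -0.0148 to 0.0682 for spp-1, -0.104 to 0.0289 for spp-2, -0.00634 to 0.0643 for spp-5, -0.00426 to 0.0518 for spp-8, -0.00717 to 0.0462 for spp-10 and -0.0515 to 0.0378 for spp-15. Between batches, 2 to 4 members were called over the alternatives run. Counts of called genes over the whole table moved more. Between UA and DMSO (38) they were 10 with no replicate block, 71 with no filter, 61 with DESeq2, 77 at a false discovery rate of 0.05, 116 without batch 4, 162 without the UA library of batch 4 and 17 without batch 5. Between UA and untreated larvae (147) they were 12 with no replicate block, 79 with only the groups compared and 71 to 396 in the leave-out fits. Between DMSO and untreated larvae (17) they were 0 with no replicate block, 35 with no filter, 26 with DESeq2, 30 at a false discovery rate of 0.05, 73 with only the groups compared and 9 to 31 in such fits. Depth limits spp-9, with 15 reads in all. Of the tested members, spp-15 had the fewest reads (190 to 409 per library). Its SE of UA against DMSO (0.065) was nevertheless below those of spp-18 (0.079) and spp-2 (0.076), which had more reads. With 5 libraries a group, no treatment change of these genes passed the adjusted threshold, and changes within the printed intervals could have been missed. The intervals are not adjusted for the number of genes tested. That of spp-3 between DMSO and untreated larvae (0.05 to 0.24) did not reach 0, but its adjusted p was 0.355 by edgeR.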
